A study of Mus musculus with 58 samples.

Results

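Fluoxetine, a selective serotonin reuptake inhibitor, was compared with vehicle in the prefrontal cortex of young mice heterozygous for a Tbl1xr1 knock-in allele (HT). The comparison took every library from HT mice given fluoxetine (5 female, 5 male) and every library from HT mice given vehicle (5 female, 5 male), 20 of the 58 RNA-seq libraries in the series, with the sexes given equal weight. Both arms carried the knock-in allele in heterozygous form on a C57BL/6J background. Drug or vehicle reached the pups through the milk of the dam for 3 weeks, from postnatal day 3 to day 24, and tissue was taken on day 25. The same drug and vehicle given to wild type mice (WT) of that strain and age, 5 libraries of each sex per arm, served for comparison, and lithium was the second drug of the study. The sources used here give neither the change made in the knock-in allele, nor the dose, nor the dam of a pup, nor whether a library comes from 1 animal. Drug and litter therefore cannot be told apart where libraries of a group share a dam, and the p-values below measure the spread between these libraries, which may be technical.

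TBL1XR1 is a subunit of the NCoR/SMRT corepressor complex, which holds the histone deacetylase HDAC3 at genes repressed by nuclear receptors and other factors. Fluoxetine blocks the serotonin transporter, which clears serotonin from the space around serotonergic endings and, during early postnatal life, is also carried by some cortical projection neurons. Immediate early genes such as Fos, Arc and Npas4 are transcribed within minutes of neuronal firing and calcium entry, and their mRNA level is widely used as a record of recent activity.

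Tbl1xr1 mRNA was measured first as a check of the labels. Its lowest, median and highest normalised read counts (reads divided by a size factor per library) were 2422, 2597 and 2747 in HT vehicle libraries and 2276, 2461 and 2692 in HT fluoxetine libraries. All 20 HT libraries lay above all 20 WT vehicle and fluoxetine libraries, whose highest value was 2225. Fluoxetine and vehicle HT libraries overlapped, with a log2 change (fluoxetine minus vehicle, on log2 of the value plus 1) of -0.05 ± 0.034 (SE) and an unadjusted p of 0.148 in limma.

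The 20 HT libraries held 22.9 to 34.9 M reads assigned to genes. The 10 cortical pyramidal genes listed (among them Slc17a7, Tbr1 and Neurod6) were all measured, and their summed level had a median of 183945 in vehicle and 173197 in fluoxetine libraries, with overlapping ranges. Genes of neighbouring tissue varied widely between libraries of each group. The summed level of the 14 striatal genes ran from 6565 to 20374 in vehicle and from 6798 to 13525 in fluoxetine libraries, and that of the 15 olfactory bulb genes from 14977 to 52789 and from 15037 to 50859. Vehicle female library 5 and fluoxetine female library 4 were the richest in striatal genes, at 1.76 and 1.10 log2 above the mean of the 20 HT libraries. Results that these 2 libraries move are given below with and without them.

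No gene passed the threshold for a change with fluoxetine in HT mice. Of 16606 genes tested, 0 (0%) reached a Benjamini-Hochberg adjusted p under 0.05 in limma and 0 in edgeR's quasi-likelihood test (1513 genes at an unadjusted p under 0.05), while DESeq2 called 19 of 16597 (0.114%), 8 higher and 11 lower. At an unadjusted p under 0.05, limma counted 1526 genes (9.19%), of which 727 (4.38%) were higher and 799 (4.81%) lower with fluoxetine. The median log2 change over all genes tested was 0.001, and 50.5% of genes lay above 0. In no gene did the 10 fluoxetine libraries lie entirely above or entirely below the 10 vehicle libraries. All 10 fluoxetine libraries lay on one side of the vehicle mean of their own sex for 331 genes (1.99%). Without the 2 striatum-rich libraries the count at an unadjusted p under 0.05 was 947, and limma called 1 gene, Gkn3. Leaving out vehicle female library 5 alone lowered that count to 1156, and leaving out fluoxetine female library 4 alone to 1215. The highest count with 1 library left out was 1747 (without fluoxetine female library 3), and with the olfactory bulb list as a covariate it was 2035.

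Within each sex the counts at an unadjusted p under 0.05 were 852 in females (5.13%; 2.27% higher, 2.86% lower) and 1555 in males (9.36%; 4.43% higher, 4.93% lower), with 50.6% and 50.7% of genes above 0. The sex difference itself (male change minus female change) had 836 such genes (5.03%). DESeq2 called 6 genes in females (0.0362%), of which 3 were higher and 3 lower (0.0181% each), and 0 in males. For the sex difference it called 3 (0.0181%), of which 1 was above 0 (0.00603%) and 2 below (0.0121%).

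Cnbp, Map3k6, Fibin, Plekhb2 and Gkn3 were among DESeq2's calls. Cnbp, which encodes a zinc finger protein that binds RNA and promotes translation, had lowest, median and highest values of 5009, 5249 and 5599 in vehicle and 5348, 5675 and 5979 in fluoxetine libraries. Its log2 change was 0.10 ± 0.022, and it rose by DESeq2 (adjusted p = 0.00681) but not by limma (adjusted p = 0.123). All 10 fluoxetine libraries lay above the vehicle mean of their sex, and the groups overlapped only between 5348 and 5599. Plekhb2, a pleckstrin homology protein of recycling endosomes, ran from 5795 to 6520 in vehicle (median 6238) and from 6312 to 6968 in fluoxetine libraries (median 6664). It rose by 0.10 ± 0.023 on the log2 scale in DESeq2's calls (adjusted p = 0.0157; limma adjusted p = 0.169). Fibin, which encodes a secreted protein, had values of 64.9, 81.7 and 99.3 in vehicle against 85.0, 124.1 and 135.5 with fluoxetine. That difference of 0.49 ± 0.11 log2 was a DESeq2 call (adjusted p = 0.0187) and had an adjusted p of 0.123 in limma. Tnfsf10, the death ligand TRAIL, was the weakest of the DESeq2 calls at an adjusted p of 0.0497. Its values were 52.3, 77.2 and 125.3 in vehicle and 28.1, 52.8 and 62.8 with fluoxetine, a log2 change of -0.69 ± 0.17 (limma adjusted p = 0.209).

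Some of DESeq2's calls rested on a few libraries. Fam205a4, a member of a multicopy family, was at 0 in all 10 fluoxetine libraries and had a median of 0 and a highest value of 752 in vehicle libraries, with a limma p of 0.0155. Ccl21b, a chemokine gene with near-identical copies among which reads can be split, had a median of 0 in vehicle and 11.7 in fluoxetine libraries, with a limma p of 0.165. Eif2s3y lies on the Y chromosome, averaged 1441 in vehicle males and 0.248 in vehicle females, and had a limma p of 0.693. No direction is given for these genes.

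Other genes near the top of the ranking were lower with fluoxetine by limma's unadjusted p without passing the adjusted threshold in any of the 3 tools. Prrx1, a homeobox gene, had values of 244, 293.5 and 325 in vehicle and 128, 223 and 252 with fluoxetine, a log2 change of -0.45 ± 0.11 (adjusted p = 0.204). All of its fluoxetine libraries lay below the vehicle mean of their sex, and only the upper end of the fluoxetine range overlapped the vehicle range. Sox2, which encodes a transcription factor of neural progenitors and glia, ran from 463 to 849 in vehicle (median 656) and from 408 to 634 with fluoxetine (median 512), at -0.37 ± 0.096. Slc7a11, the cystine-glutamate exchanger of astrocytes, had medians of 1967 and 1647 and a log2 change of -0.33 ± 0.090. Cfp, encoding the complement regulator properdin, had medians of 173.5 and 127, a log2 change of -0.46 ± 0.12 in HT and 0.09 in WT, and a genotype difference with an unadjusted p of 0.00214 in limma. On the higher side, Gnai1, an inhibitory G protein subunit, had medians of 5815 and 6310 (0.11 ± 0.030), and Fbl, the nucleolar RNA methyltransferase fibrillarin, had medians of 682 and 768 (0.17 ± 0.047). Adjusted p-values of these 5 genes in limma lay between 0.209 and 0.213.

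Genes of recent neuronal activity were the group with the lowest median in the fluoxetine libraries of HT mice. Of the 22 immediate early transcription factors and fast feedback genes listed, 20 were below 0 and their median log2 change was -0.442, beside 0.001 over all genes. At an unadjusted p under 0.05 in limma, 12 of the 22 were lower and 1, Maff, was higher, where 4.81% of all genes were lower and 4.38% higher. No member passed the adjusted threshold in limma or edgeR, so each value is given as a difference and not as a change. The median was -0.279 in females, running from -0.479 (without vehicle female library 4) to -0.183 (without vehicle female library 1) with 1 library left out. In males it was -0.525, running from -0.596 to -0.433, and 0 of the 22 had a sex difference at an unadjusted p under 0.05. Leaving out any 1 HT library kept the median between -0.548 and -0.374 and the number lower between 10 and 14, and without the 2 striatum-rich libraries they were -0.383 and 11.

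Arc, whose protein forms capsids and drives removal of AMPA receptors from synapses, differed most among the activity genes that were abundant. Its normalised counts in vehicle females were 5237, 4676, 4176, 738 and 8756, and in fluoxetine females 2094, 1395, 2718, 1385 and 1621. In males they were 5702, 1030, 4065, 5781 and 1888 with vehicle and 2077, 616, 719, 1011 and 871 with fluoxetine. All 10 fluoxetine libraries lay below the vehicle mean of their sex, while vehicle female library 4 and vehicle male libraries 2 and 5 lay within the fluoxetine range. Arc fell by DESeq2 (adjusted p = 0.013), and in limma had a log2 change of -1.35 ± 0.38, an unadjusted p of 0.000715 and an adjusted p of 0.213. The difference was -1.04 in females (unadjusted p = 0.0552) and -1.67 in males (unadjusted p = 0.00286), with a sex difference of -0.62 (unadjusted p = 0.41).

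Npas4, a transcription factor switched on by calcium entry that shapes inhibitory synapses, had the smallest p among the immediate early factors. Its lowest, median and highest values were 422, 606 and 943 in vehicle and 224, 327 and 835 with fluoxetine. Fluoxetine female library 5, at 835, stood apart from the other 9 fluoxetine libraries, which lay between 224 and 371 and all below the lowest vehicle library. The log2 change was -0.76 ± 0.20 (limma unadjusted p = 0.000336, adjusted p = 0.209). Junb, an AP-1 subunit, had values of 529.5, 1209 and 1795 in vehicle and 498, 636 and 801 with fluoxetine, a difference of -0.77 ± 0.22. Nr4a1, an orphan nuclear receptor, ran from 940 to 2852 (median 2539) in vehicle and from 776 to 1773 (median 1318) with fluoxetine, a difference of -0.69 ± 0.23. Vehicle female library 4 and vehicle male library 2 were inside the fluoxetine range for both genes, as was vehicle male library 5 for Nr4a1, and the other vehicle libraries lay above it. Ier2 (-0.70 ± 0.20), the antiproliferative gene Btg2 (-0.64 ± 0.18) and the MAP kinase phosphatase gene Dusp1 (-0.62 ± 0.18) had 10 of 10 fluoxetine libraries below the vehicle mean of their sex. Adjusted p-values of these 5 genes ran from 0.213 to 0.295 in limma.

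Members of one family did not all stand alike. Egr1 (-0.59 ± 0.21), Egr2 (-1.09 ± 0.44) and Egr4 (-0.45 ± 0.17), zinc finger factors of the same family, were lower at unadjusted p-values of 0.00753, 0.0179 and 0.0111 in limma. Egr3 was at -0.03 ± 0.14 (unadjusted p = 0.832), with medians of 3411 in vehicle and 3422 in fluoxetine libraries, and its sign turned (0.04) without the 2 striatum-rich libraries. Fos was at -0.75 ± 0.34 and Sik1, a kinase that keeps CREB coactivators out of the nucleus, at -0.44 ± 0.20, both with an unadjusted p of 0.0336. Fosb (-0.34 ± 0.32), Fosl2 (-0.32 ± 0.22), Nr4a3 (-0.46 ± 0.26) and Nr4a2 (-0.20 ± 0.20) were also below 0, with unadjusted p-values above 0.05. Maff, a small Maf factor, was at 0.40 ± 0.20 with an unadjusted p of 0.0498.

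**Figure D1:**
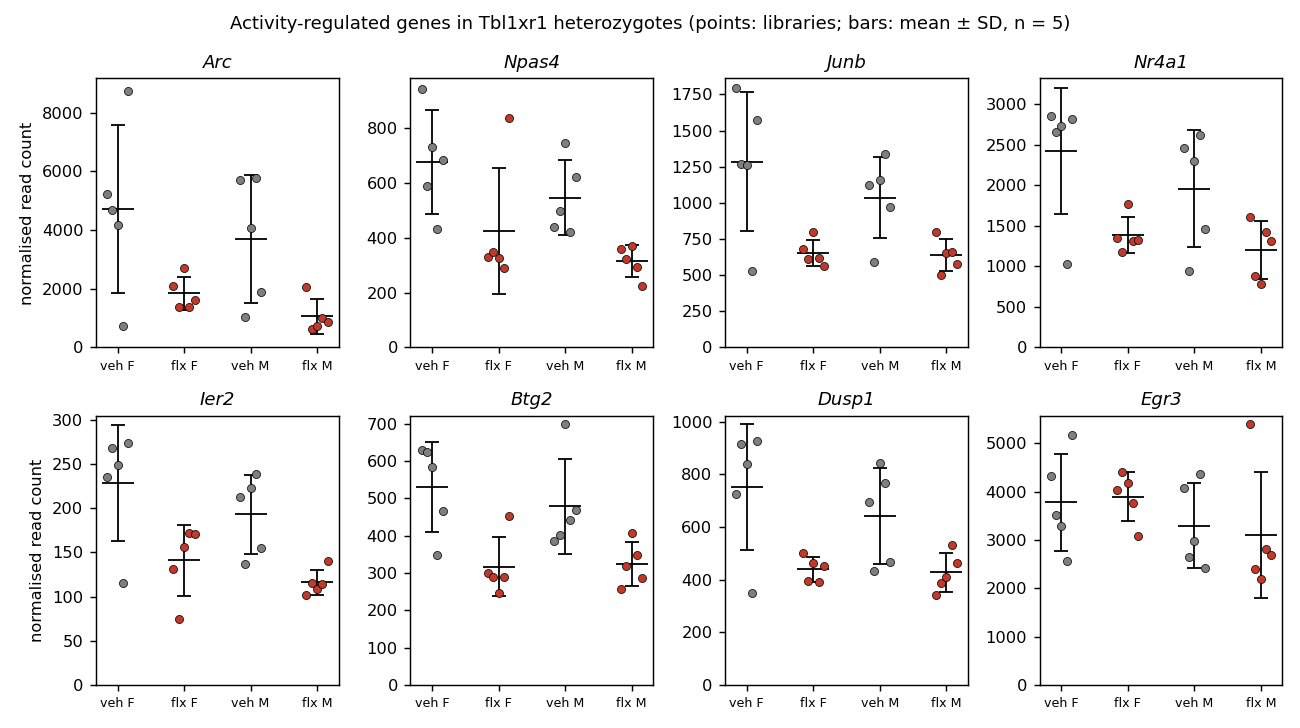
Normalised read count (vertical axes, linear from 0) of 8 activity-regulated genes in HT libraries by drug and sex. Grey points are vehicle (veh) and red points fluoxetine (flx) libraries, and bars give the mean and SD of 5 libraries. For Arc the fluoxetine libraries lie between 616 and 2718, and for Egr3 the fluoxetine and vehicle libraries overlap fully.

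Activity-induced effector genes, which act at synapses or are secreted, showed less of a shift apart from Arc. Of the 17 listed, 12 were below 0 with a median of -0.072. At an unadjusted p under 0.05, 3 (Arc, Gadd45g and Mfap3l) were lower, where 4.81% of all genes were. Bdnf, the neurotrophin gene often studied with antidepressants, had medians of 1019 in vehicle and 1011 in fluoxetine libraries and a log2 change of 0.02 ± 0.11, and its sign turned to -0.01 with array weights. Homer1 (-0.15 ± 0.15), Nptx2 (0.09 ± 0.091) and Vgf (-0.05 ± 0.072) also lay within about their standard error of 0.

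The transcript 1700016P03Rik, a noncoding RNA on chromosome 11 (GRCm38, 75172560 to 75177633, plus strand), was also low in fluoxetine libraries. Its counts were low, at 6.77, 30.7 and 47.9 in vehicle and 6.14, 9.98 and 20.5 in fluoxetine libraries. Vehicle male libraries 1 and 2 (19.5 and 6.8) and vehicle female library 4 (10) lay inside the fluoxetine range. It is named for the miRNA genes it carries, a choice made after its values were seen. It fell by DESeq2 (adjusted p = 0.0468), with a limma log2 change of -1.18 ± 0.33 and an adjusted p of 0.213. The RefSeq hairpins Mir212 (75173388 to 75173478) and Mir132 (75173682 to 75173747) lie inside this transcript, and the miRNAs themselves were not measured here. Both carry a 3p arm that shares the seed AACAGUC, shown in capitals (bases 2 to 8) in these mature sequences from RefSeq on GRCm38.p6:
mmu-miR-132-3p: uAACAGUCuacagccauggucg
mmu-miR-212-3p: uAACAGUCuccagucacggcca

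Promoters of the activity genes were searched for the cAMP response element, the site read by CREB after calcium entry, because these genes stood low together. The core TGACG was counted on either strand in the 250 bases before each RefSeq start, and the full palindrome TGACGTCA, which contains the core on both strands, was counted separately. Of the 17 immediate early genes with a window, 13 (76.5%) held the core in at least 1 window, beside 3503 of 12100 tested genes (29.0%) and 17.8% of all 32851 windows in the table. The palindrome stood in 3 of the 17 (17.65%) and in 2.91% of tested genes with a window, and the 3 included Maff, which was higher. Of the 12 activity-induced effector genes with a window, 6 held the core and 3 the palindrome. The full effector list had a median log2 change of only -0.072 in HT mice. Whether these sites bear on the values with fluoxetine was not tested. Arc, Egr1, Egr3, Ier2, Trib1 and Sik1 were among the activity genes with no window in the table. Shown with matches in capitals are 3 windows of genes with a low value in fluoxetine libraries. Btg2 (chr1:134079156-134079405, minus strand) and Dusp1 (chr17:26508473-26508722, minus strand) hold the palindrome, starting 166 and 143 bases before the start site, and Fos (chr12:85473640-85473889, plus strand) holds the core at 129 and 66 bases before it. The coordinates and letters are RefSeq's on GRCm38.p6, and a match describes the letters only.
Btg2: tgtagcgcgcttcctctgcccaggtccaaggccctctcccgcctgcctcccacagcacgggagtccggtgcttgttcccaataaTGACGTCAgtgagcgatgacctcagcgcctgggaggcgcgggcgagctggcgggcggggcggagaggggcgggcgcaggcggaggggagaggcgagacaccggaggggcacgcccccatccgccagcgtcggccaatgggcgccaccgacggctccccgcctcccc
Dusp1: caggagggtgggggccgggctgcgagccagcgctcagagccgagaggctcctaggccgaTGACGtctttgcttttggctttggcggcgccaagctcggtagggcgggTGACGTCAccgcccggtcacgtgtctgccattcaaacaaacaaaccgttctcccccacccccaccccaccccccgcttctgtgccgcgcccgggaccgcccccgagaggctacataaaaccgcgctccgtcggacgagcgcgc
Fos: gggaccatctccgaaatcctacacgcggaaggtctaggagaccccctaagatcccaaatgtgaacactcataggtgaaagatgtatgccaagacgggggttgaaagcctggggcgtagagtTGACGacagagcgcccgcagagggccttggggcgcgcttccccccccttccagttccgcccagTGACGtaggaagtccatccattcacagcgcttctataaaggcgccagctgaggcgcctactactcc

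WT mice given the same drug had values nearer 0 for these genes. The direction was largely shared: 19 of the 22 immediate early genes were below 0 in WT, beside 20 in HT. Their WT median was -0.142, with 0 lower and 0 higher at an unadjusted p under 0.05. The genotype difference (HT change minus WT change) was below 0 at an unadjusted p under 0.05 for 5 of the 22, where 2.48% of all genes were, and no gene of the 16606 passed the adjusted threshold of that difference in limma. For Npas4 it was -0.68 (unadjusted p = 0.0185) and for Btg2 -0.56 (unadjusted p = 0.0363), while for Arc it was -0.92 (unadjusted p = 0.0884) and for Junb -0.57 (unadjusted p = 0.0777). WT fluoxetine libraries spread widely: Arc ran from 629 to 5246 with a median of 2817, beside 1384 to 8723 with a median of 3575 in WT vehicle libraries. HT mice given lithium, which share the vehicle libraries of this comparison, had Arc means of 5166 ± 1388 (SD, n = 5) in females and 3879 ± 2245 in males, beside 4717 ± 2860 and 3693 ± 2173 with vehicle and 1843 ± 567 and 1059 ± 589 with fluoxetine.

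The arterial gene Gkn3 and most mural genes were low in fluoxetine libraries, while general endothelial genes were mixed. Gkn3 encodes gastrokine 3, which in the brain marks arterial endothelium. Its counts in vehicle females were 51.7, 69.6, 98.1, 76.5 and 68.6, and in fluoxetine females 20.5, 22, 19.8, 50.2 and 19.1. In males they were 24.8, 74.4, 47.1, 72.3 and 66.0 with vehicle and 32.3, 38.8, 43.3, 47.4 and 35.5 with fluoxetine. No fluoxetine female library reached the lowest vehicle female library, while in males vehicle library 1 was the lowest of all 10. The female difference of -1.51 was the only limma call within a sex of the HT mice (1 of 16606 genes, 0.00602%; adjusted p = 0.041), and the male difference was -0.43 (unadjusted p = 0.137). The sex difference of 1.08 had an unadjusted p of 0.00968 and did not pass the adjusted threshold. The female call depended on single libraries and was lost without any 1 of 7 female libraries (fluoxetine 1, 2, 3 or 5, or vehicle 3, 4 or 5), and edgeR did not make it. Over both sexes Gkn3 was at -0.97 ± 0.20, a call by DESeq2 (adjusted p = 0.00578) and not by limma (adjusted p = 0.0806), and without the 2 striatum-rich libraries it fell by limma as well (-1.10, adjusted p = 0.0308). WT mice had the same direction, -1.13, where Gkn3 fell by limma (adjusted p = 0.00415).

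Smooth muscle and pericyte genes followed in direction. Of 13 mural genes, 12 were below 0 with a median of -0.114. At an unadjusted p under 0.05, 4 were lower, where 4.81% of all genes were. Acta2, smooth muscle actin, had values of 284, 446 and 581 in vehicle and 211, 300.4 and 431 with fluoxetine. Its log2 change was -0.42 ± 0.12 (limma adjusted p = 0.213). All 10 fluoxetine libraries lay below the vehicle mean of their sex, where 1.99% of all genes had all 10 on one side. The groups overlapped between 284 and 431. Smooth muscle myosin Myh11 (-0.31 ± 0.096), Rgs5 (-0.28 ± 0.10) and the platelet-derived growth factor receptor gene Pdgfrb (-0.19 ± 0.060) made up the rest of the 4. In WT the mural median was -0.116, again with 4 lower, where 6.91% of all genes were. Of the endothelial genes, 8 of 14 general markers were below 0 (median -0.129), with Kdr, the main VEGF receptor, at -0.34 ± 0.12 and VE-cadherin Cdh5 at -0.19 ± 0.069. In the arterial list 10 of 14 were below 0, with Vegfc at -0.29 ± 0.094 and the Notch ligand Jag1 at -0.30 ± 0.11. Outside the mural and general endothelial lists, the wnt-responsive factor Lef1, present in brain endothelium, was at -0.36 ± 0.11. Adm, encoding the vasodilator adrenomedullin, was at -0.52 ± 0.14 with 10 of 10 fluoxetine libraries on the low side. Wider lists were mixed at an unadjusted p under 0.05, where 4.81% of all genes were lower and 4.38% higher. Of 13 Wnt target genes tested 2 were lower and 1 higher, and of 15 hypoxia and VEGF genes 3 were lower and 2 higher. In bulk tissue, fewer vessel cells and less RNA per vessel cell cannot be told apart.

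Slc2a1, the glucose transporter GLUT1 of the blood-brain barrier, went the other way. Its values were 2208, 3060.0 and 3440.0 in vehicle and 2665, 3557 and 4321 with fluoxetine, a log2 change of 0.29 ± 0.083 in HT (limma adjusted p = 0.213) and 0.30 in WT. Of the 10 fluoxetine libraries, 9 lay above the vehicle mean of their sex. Of 15 barrier transport genes, Slc2a1 was the only one higher at an unadjusted p under 0.05, and Slco1a4 and Slc38a5 were the 2 lower. Over all genes 4.38% were higher and 4.81% lower. Pgk1, a glycolytic enzyme, had medians of 10511 and 11350.0 and a log2 change of 0.11 ± 0.035.

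Targets of the glucocorticoid receptor were mostly above 0 with fluoxetine, and in HT males the sign of their median depended on 1 library. Of 17 tested, 12 were above 0 with a median of 0.139. At an unadjusted p under 0.05, 6 were higher and 0 lower, where 4.38% and 4.81% of all genes were. Map3k6, a stress-activated kinase induced by glucocorticoids, had values of 45.5, 82.3 and 102.9 in vehicle and 90.4, 120.9 and 147.3 with fluoxetine. Its fluoxetine libraries overlapped only the 3 highest vehicle libraries, and all 10 lay above the vehicle mean of their sex. The log2 change was 0.63 ± 0.14, a rise by DESeq2 (adjusted p = 0.0268; limma adjusted p = 0.123). Fkbp5, which encodes the co-chaperone that damps the receptor, had values of 677, 805 and 1323 in vehicle and 806, 1133 and 1435 with fluoxetine. Vehicle female library 4, at 1323, was the highest vehicle library and lay above 7 of the fluoxetine libraries. The Fkbp5 difference was 0.43 ± 0.13, with 0.20 in females (unadjusted p = 0.271) and 0.65 in males (unadjusted p = 0.000745), and the sex difference had an unadjusted p of 0.0855. Plin4 (0.68 ± 0.29), Sult1a1 (0.38 ± 0.16), Zbtb16 (0.20 ± 0.090) and Sgk1 (0.16 ± 0.070) completed the 6. Fluoxetine male library 1 stood highest for the list, at 0.48 log2 above the HT mean. Without it the HT median was 0.064, with 3 members higher and 1 lower. The male median was 0.11 with this library and -0.026 without it, where 9 of 17 were below 0. Leaving out the other libraries in turn left up to 8 members higher over both sexes. In WT, 15 of 17 were above 0 and 7 were higher, where 6.46% of all genes were. Map3k6 (0.91, limma adjusted p = 0.00082) and Fkbp5 (0.60, adjusted p = 0.0193) rose there by limma.

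**Figure D2:**
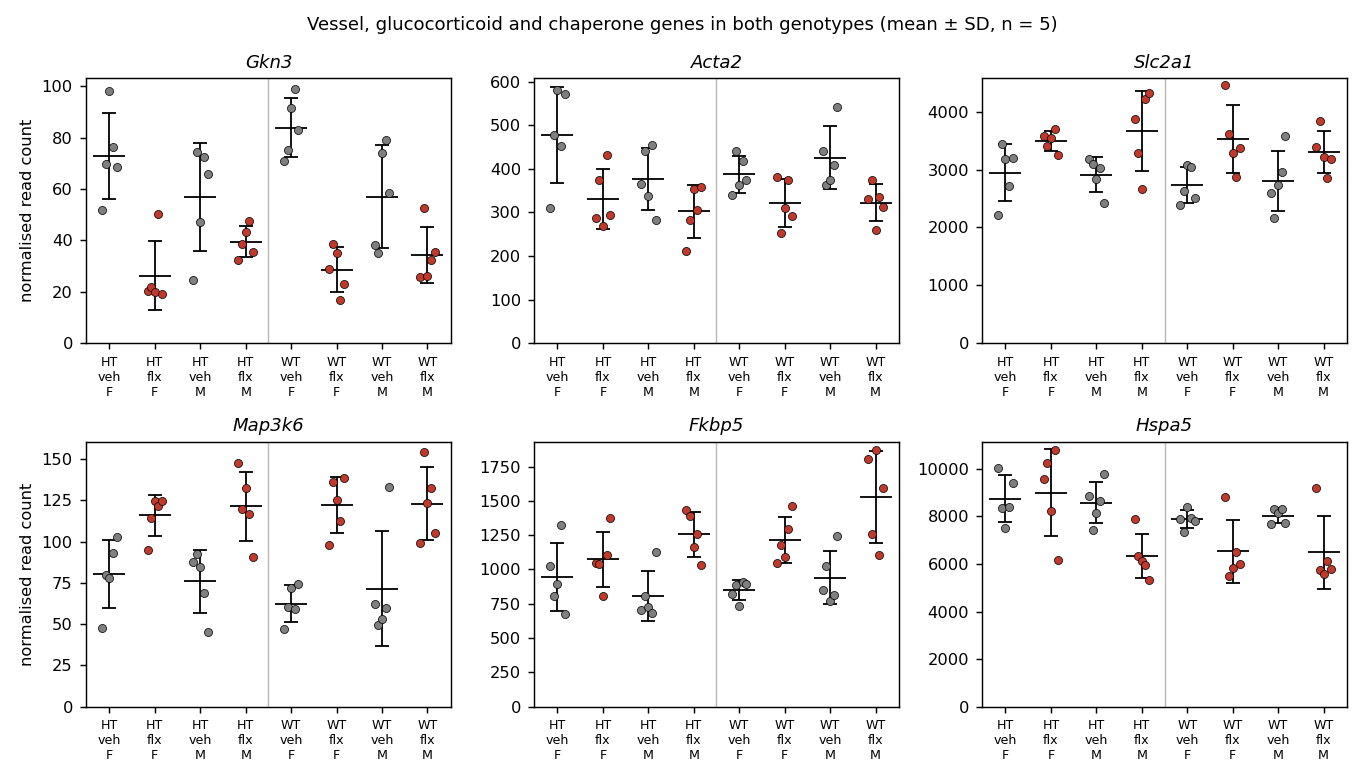
Normalised read count (linear axes from 0) of Gkn3, Acta2, Slc2a1, Map3k6, Fkbp5 and Hspa5 in HT and WT libraries by drug and sex. Grey points are vehicle (veh), red points fluoxetine (flx), and bars give the mean and SD of 5 libraries. Hspa5 in HT females given fluoxetine spans 6176 to 10784, and in HT males given fluoxetine 5342 to 7888.

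Chaperone genes of the endoplasmic reticulum differed between the sexes of HT mice. These genes are induced by the unfolded protein response when misfolded proteins load the secretory pathway. In HT males given fluoxetine 17 of 18 were below 0 (median -0.207) and 14 were lower at an unadjusted p under 0.05, where 4.93% of all genes were. In HT females 15 of 18 were above 0 (median 0.047) and 0 were lower. The female value depended on single libraries: without the striatum-rich fluoxetine female library 4, 10 of 18 were below 0 (median -0.004), and without fluoxetine female library 5 none was (0.115). The sex difference (male change minus female change) was below 0 for all 18 with a median of -0.241, and 12 of the 18 had an unadjusted p under 0.05, where 2.55% of all genes did. No gene passed the adjusted threshold of the sex difference in limma (836 genes at an unadjusted p under 0.05) or edgeR, and DESeq2 called 3, none of them in the list. Leaving out any 1 HT library left 11 to 15 members with such a difference. In WT the medians were -0.162 in females and -0.172 in males.

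Hspa5, the chaperone BiP, had counts of 10048, 8339, 7513, 8417 and 9397 in vehicle females and 9588, 10227, 8241, 10784 and 6176 in fluoxetine females. In males they were 8859, 7441, 8131, 8647 and 9774 with vehicle and 7888, 6343, 6141, 5970.2 and 5342 with fluoxetine. Of the male fluoxetine libraries, 4 of 5 lay below every vehicle library, and in females only library 5 did. The male difference was -0.44 (unadjusted p = 0.000984), the female one 0.02 (unadjusted p = 0.86), and the sex difference -0.46 (unadjusted p = 0.0122) in limma. Calr, the calcium-binding chaperone calreticulin, was at -0.28 in males and 0.03 in females (sex difference unadjusted p = 0.00231), and fell in WT by limma (-0.25, adjusted p = 0.00923). The disulfide isomerase Pdia4 was at -0.46 in males and 0.07 in females, and the secreted factor Manf at -0.31 and 0.04, with unadjusted p-values of the sex difference of 0.00945 and 0.00827. By library, the 18 genes averaged 0.10 to 0.25 above the HT mean in fluoxetine female libraries 1 to 4 and 0.22 below it in library 5. Fluoxetine male libraries 2 to 5 averaged 0.17 to 0.26 below it and library 1 averaged 0.03 below it.

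Cytosolic chaperones showed the same split at smaller size. Of 15 heat shock genes, 12 were above 0 in HT females and 1 in HT males. At an unadjusted p under 0.05, 5 had a sex difference below 0, where 2.55% of all genes did. In WT the medians were -0.082 in females and -0.051 in males. Over both WT sexes 5 of the 15 were lower at that threshold, where 6.91% of all genes were. Hsp90ab1, the constitutive HSP90, was at 0.14 in females and -0.09 in males (sex difference -0.23, unadjusted p = 0.00456). Aplp2, a relative of the amyloid precursor protein, was at 0.13 and -0.11, and at 0.01 over the sexes together. For Rom1, a photoreceptor disc protein gene that is weakly expressed in cortex, the order was the reverse, -0.39 in females and 0.60 in males (unadjusted p = 0.00015). Aplnr, the apelin receptor of endothelium, was at 0.05 in females and -1.30 in males (sex difference unadjusted p = 0.00248). In females, Snrpa1, a spliceosome subunit, was at 0.33 with an unadjusted p of 5.32e-05, and at 0.06 in males.

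Interferon-stimulated genes differed between the sexes in the opposite sense. All 14 were below 0 in HT females (median -0.342) and 13 of 14 above 0 in HT males (median 0.276). Medians of blood cell and microglial genes also differed between the sexes of HT mice. The 7 blood cell genes tested were all below 0 in females (median -0.448) and 5 were above 0 in males (0.151). The 14 microglial genes were all below 0 in females (-0.156) with 13 sex differences above 0. In WT the blood cell medians were -0.42 in females and 0.295 in males, and the interferon medians -0.169 and -0.1. As the mean log2 deviation of an HT library, blood cell genes ran from -0.477 to 0.712 in vehicle females and -0.622 to 0.201 in fluoxetine females. In HT males they ran from -0.439 to 0.580 with vehicle and -0.030 to 0.650 with fluoxetine, and their part in the interferon values was not tested. The sex difference of the interferon genes had a median of 0.679, and 5 of 14 had an unadjusted p under 0.05, where 2.48% of all genes were higher. Ifit3, which encodes an antiviral protein, had counts from 174.0 to 407 in vehicle females and 105, 123, 130.2, 168 and 314.5 in fluoxetine females. In males fluoxetine libraries had 126, 233.0, 546.5, 206 and 211, and 4 of these 5 lay inside the range of the vehicle males. Single libraries stood high in 3 groups: vehicle female 4 (407), fluoxetine female 5 (314.5) and fluoxetine male 3 (546.5). Ifit3 was at -0.72 in females and 0.47 in males, a sex difference with an unadjusted p of 0.00367, and the number of list members with such a difference was 3 without vehicle female 4, fluoxetine female 1 or fluoxetine male 3, and 8 without vehicle female 5 or fluoxetine female 5.

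**Figure D3:**
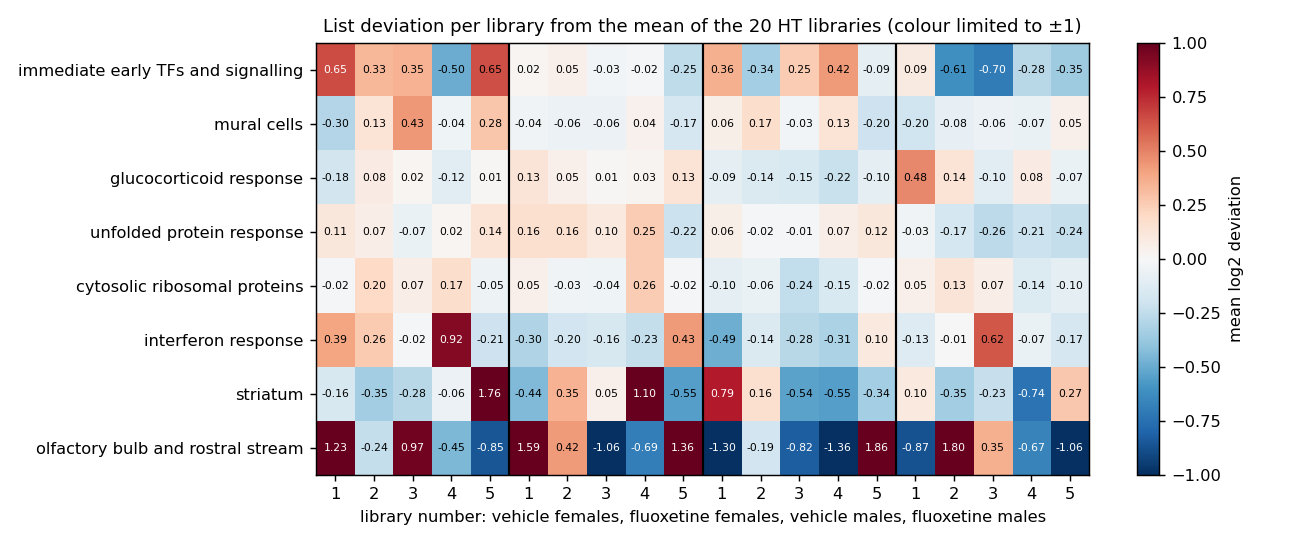
Mean log2 deviation of 8 gene lists (rows) from the mean of the 20 HT libraries, one column per library in 4 blocks (vehicle females, fluoxetine females, vehicle males, fluoxetine males), with colours limited to 1 in either direction and the values printed in the cells. Vehicle female library 4 is low for immediate early genes (-0.50) and high for interferon genes (0.92), and vehicle female library 5 is high for striatal genes (1.76).

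Oxidative phosphorylation subunits were slightly high as a group. Of 82 nuclear-encoded subunits, 73 were above 0 with a median of 0.06. At an unadjusted p under 0.05, 21 were higher and 0 lower, where 4.38% and 4.81% of all genes were. Without the 2 striatum-rich libraries the median was 0.026 with 7 higher, and without fluoxetine female library 4 alone 12 were higher. Sdhb, a subunit of succinate dehydrogenase, had medians of 2582 and 2807 and a log2 change of 0.13 ± 0.035 with 10 of 10 fluoxetine libraries above the vehicle mean of their sex. Ndufc2, of complex I, was at 0.16 ± 0.048 and Atp5g3, of the ATP synthase, at 0.15 ± 0.047. The 13 mitochondrially encoded mRNAs had a median of 0.001 and 0 at an unadjusted p under 0.05.

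Cytosolic ribosomal protein genes stood mostly above 0 in HT males, and in HT females their sign depended on single libraries. Of 77, 68 were above 0 in males (median 0.113) and 20 in females (median -0.02). At an unadjusted p under 0.05, 26 were higher in males, where 4.43% of all genes were, and 0 in females. By the sex difference 12 had a higher value in males at that threshold, where 2.48% of all genes did. Without the 2 striatum-rich libraries, both of them female, the female median was -0.104 and that number was 40. Over both sexes the median was 0.046 with 11 higher, and 0.01 with 1 higher without those libraries. These counts moved with many single libraries: leaving out 1 HT library at a time gave 2 to 16 higher over both sexes, 14 to 36 in males (15 without fluoxetine male 2, 14 without vehicle male 3) and 5 to 32 in the sex difference. In females 57 were below 0, and that number was 36 without vehicle female 2 (median 0.004), 37 without vehicle female 4 and 71 without fluoxetine female 4. Rps25 of the small subunit was at 0.24 in males and -0.01 in females (sex difference unadjusted p = 0.0127).

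Cholesterol synthesis and uptake genes were mostly low, by small amounts. Of 22, 19 were below 0 with a median of -0.085. At an unadjusted p under 0.05, 4 were lower, where 4.81% of all genes were. Among the 4, Insig1, which holds the SREBP pathway back when sterols are plentiful, was at -0.14 ± 0.065 and the sterol carrier gene Stard4 at -0.11 ± 0.052. The list's median was -0.153 in males with 9 lower, where 4.93% of all genes were. In females it was -0.006 with 1 lower, where 2.86% of all genes were. In WT it was -0.104 with 9 lower, where 6.91% of all genes were. Single libraries moved these counts: over both sexes 15 were lower without vehicle female library 4 and 1 without vehicle female library 5, and in males 1 was lower without vehicle male library 1.

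Serotonin receptor genes had medians of opposite sign in HT females and males, and the sign in males depended on single libraries. Slc6a4, the serotonin transporter gene, was not analysed here. Of 12 serotonin receptor genes, 6 were above 0 (median 0.021). At an unadjusted p under 0.05, 1, Htr5a, was higher, where 4.38% of all genes were. In females 9 were above 0 (median 0.158) with 2 higher at that threshold, where 2.27% of all genes were. In males 4 were above 0 (median -0.044) with 1 lower, where 4.93% of all genes were. The sex difference had a median of -0.218 with 1 gene at an unadjusted p under 0.05, where 5.03% of all genes were. With 1 library left out the male median ran from -0.099 to 0.02 and the female one from 0.087 to 0.233. Of 10 genes of serotonin transport and metabolism, 7 were below 0 (median -0.016) and 1 was higher. Htr5a, an inhibitory receptor, had values of 612, 694 and 808 in vehicle and 699, 785 and 866 with fluoxetine, a log2 change of 0.19 ± 0.065 (unadjusted p = 0.00631, adjusted p = 0.338). Htr2a, the main excitatory receptor of cortical pyramidal cells, was at 0.09 ± 0.098 with medians of 1746 and 1866. The autoreceptor and cortical inhibitory receptor gene Htr1a was at 0.08 ± 0.12, and at -0.01 without the 2 striatum-rich libraries. In the NCoR/SMRT complex 1 of 12 genes, Hdac5, was lower at an unadjusted p under 0.05 (-0.15 ± 0.054), where 4.81% of all genes were. Ncor1 (-0.05 ± 0.041) and Hdac3 (0.05 ± 0.035) lay close to 0. Counts of 1 in these lists of 10 or 12 genes are close to the shares over all genes.

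Receptor, synapse, interneuron and myelin genes lay close to 0, while upper-layer, oligodendrocyte precursor and microglial genes held members with an unadjusted p under 0.05. None of the 22 glutamate receptor, 12 GABA-A receptor, 20 presynaptic, 17 postsynaptic scaffold, 16 interneuron or 15 myelin genes had an unadjusted p under 0.05 in either direction, and their medians lay between -0.027 and 0.043. The genotype difference of the GABA-A receptor genes was above 0 for 11 of 12, with a median of 0.109 and a WT median of -0.076. At an unadjusted p under 0.05 it was above 0 for 5 of the 12, where 2.29% of all genes were. In the HT comparison 4.81% of all genes were lower at an unadjusted p under 0.05. Upper-layer genes held 3 of 12 lower, namely the POU factors Pou3f2 (-0.21 ± 0.059) and Pou3f3 (-0.17 ± 0.057) and Rorb (-0.22 ± 0.084). Of 12 oligodendrocyte precursor genes, 11 were below 0 (median -0.12) with 2 lower, Gpr17 at -0.26 ± 0.097 and Sox6 at -0.16 ± 0.062, and their summed level ran from 17521 to 22987 in vehicle and from 17478 to 20354 in fluoxetine libraries. Microglial genes had 12 of 14 below 0 (median -0.055) and 3 lower, Cx3cr1 (-0.18 ± 0.073), P2ry12 (-0.22 ± 0.096) and Itgam (-0.17 ± 0.080). The astrocyte factor Sox9 was at -0.22 ± 0.081, the 1 of 12 astrocyte genes at an unadjusted p under 0.05. Of 30 autism risk genes 3 were lower, among them Adnp (-0.18 ± 0.081) and Tcf4 (-0.12 ± 0.049). That number depended on single libraries and ran from 0 to 7 with 1 HT library left out. The striatum-rich fluoxetine female library 4 stood low for this list, at -0.275 log2 from the HT mean.

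**Figure D4:**
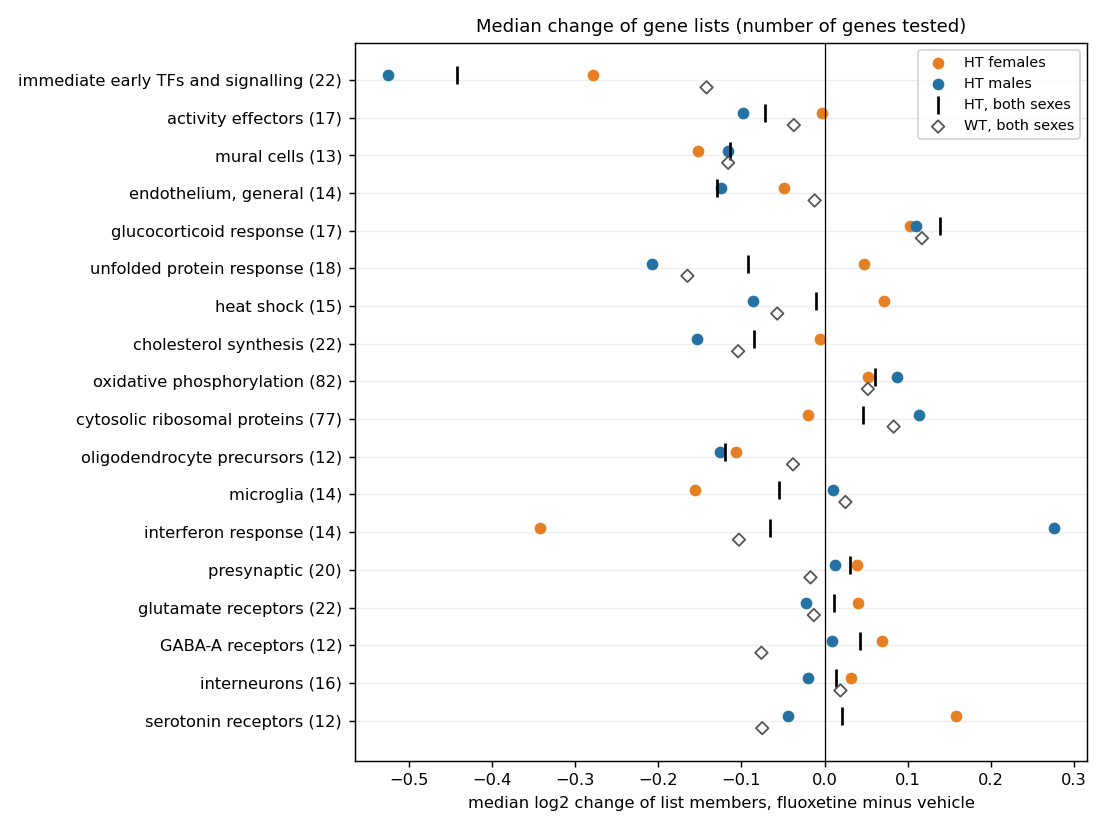
Median log2 change (fluoxetine minus vehicle, horizontal axis) of 18 gene lists, with the number of genes tested in brackets. Orange points are HT females, blue points HT males, black bars both HT sexes together and open diamonds WT. Immediate early genes lie lowest (HT median -0.442), and interferon genes lie apart between HT females (-0.342) and HT males (0.276).

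The HT response was then set beside the WT response, with which it shares no library. In WT, limma called 61 of 16606 genes (0.367%), 26 higher and 35 lower, and 2221 (13.4%) had an unadjusted p under 0.05. Of the 61, 56 (91.8%) had the same direction in HT mice, where 61.3% of all genes did, and 19 of them had an unadjusted p under 0.05 in that direction and 0 in the other. The 26 genes that rose in WT had a median of 0.266 there, where they were chosen, and 0.095 in HT, and the 35 that fell had medians of -0.241 and -0.075. Since they were chosen in WT, these medians give no comparison of size between genotypes. No gene passed the adjusted threshold of the genotype difference in limma or edgeR (793 genes, 4.78%, at an unadjusted p under 0.05), and DESeq2 called 1, a pseudogene.

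The same genes were then read in each sex of the HT mice. Of the 61 genes, 59 (96.7%) had the WT direction in HT males, where 65.5% of all genes did, and 26 had an unadjusted p under 0.05. In HT females 34 (55.7%) had it, where 50.3% of all genes did, and 5 had an unadjusted p under 0.05. All 35 genes that fell in WT were below 0 in HT males and 15 of them in HT females. Whether the share differs between the sexes was not tested. Across 16606 genes, which are not independent replicates, the correlation of log2 changes was 0.252 between HT and WT, 0.181 and 0.244 between HT males and WT females or males, and -0.026 and 0.066 between HT females and WT females or males. Between the sexes it was 0.093 in HT and -0.166 in WT. The log2 changes of WT correlated at 0.227 with GC content over 16595 genes and those of HT at 0.046, and with log2 length at -0.11 and -0.116, and the part of these properties in the likeness was not tested.

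**Figure D5:**
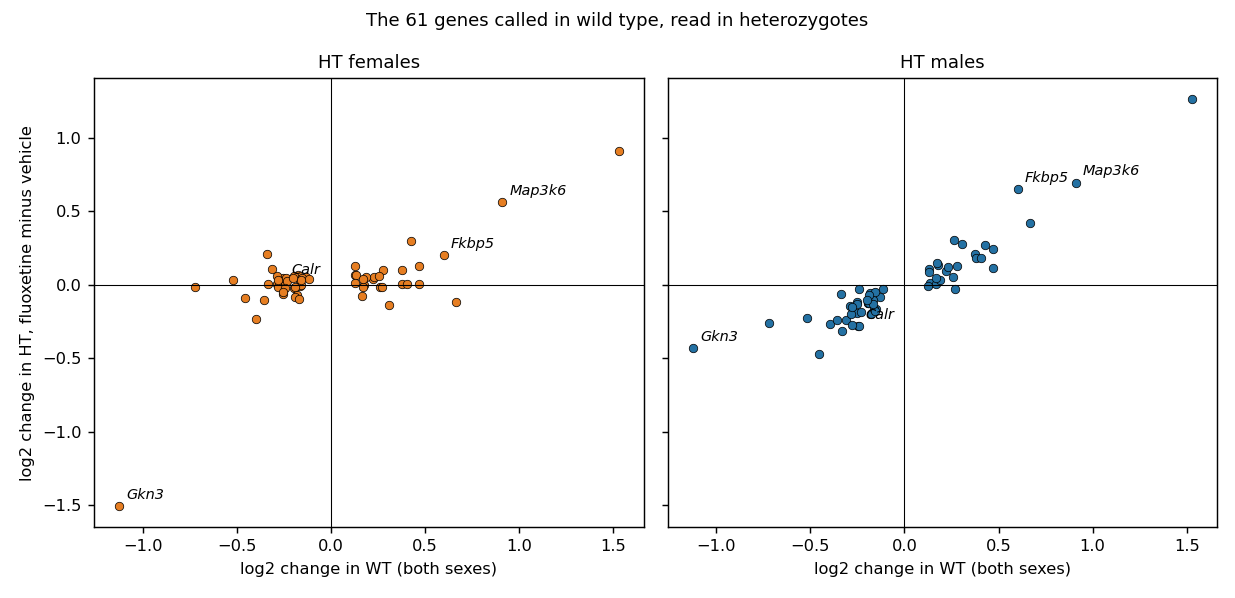
Log2 change in HT females (left) and HT males (right), on the vertical axes, against the log2 change in WT (both sexes, horizontal axes) for the 61 genes called in WT by limma; each point is a gene. In males 59 points share the WT direction and in females 34, and Gkn3 lies lowest in females at -1.51.

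Read from the HT side, 73 genes had an unadjusted p under 0.001 in HT mice, and 63 of them (86.3%) had the same direction in WT, 26 with an unadjusted p under 0.05 and 1 with such a p in the other direction. The 22 higher genes had medians of 0.161 in HT, where they were chosen, and 0.107 in WT, and the 51 lower ones -0.435 and -0.112. Since they were chosen in HT, these medians again give no comparison of size between genotypes. Zfp287, a zinc finger gene, was among those without the same direction in WT. It was at -0.18 ± 0.042 in HT (limma adjusted p = 0.169) and 0.02 in WT. Its HT values ran from 333 to 451 in vehicle and from 299.98 to 380.4 (median 343) with fluoxetine. All 10 HT fluoxetine libraries lay below the vehicle mean of their sex. Zfp13 was at -0.09 in HT and 0.20 in WT, and Smndc1, a splicing factor gene, at 0.11 and -0.09, with unadjusted p-values of the genotype difference of 0.000499 and 0.000503 in limma.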

How the data were processed

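RNA-seq libraries (58, TruSeq Stranded mRNA kit) from prefrontal cortex were analysed in 12 groups of genotype, drug and sex. The authors deposited 1 table of 18088 genes whose unit is a signal, read counts divided by a size factor per library (0.7872 to 1.1986 in HT). The build GRCm38 and the tools DESeq2 1.19.11, Salmon 0.11.2 and R 3.6.0 are named in the submitters' processing notes. The size-factor steps gave whole reads for 100% of values (tolerance 0.0001), at 22.9 to 35.01 M reads a library, and these recovered reads entered the count models. Names and coordinates came from GENCODE mouse release 21 (18077 genes matched, 11 not), promoter and miRNA sequences from RefSeq on GRCm38.p6.

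Because the values are not counts, the main test was limma 3.58.1, fitted to log2(value + 1) with its trend option,, over genes with a mean of at least 10 in all libraries (16606), with 12 group means and 46 residual degrees of freedom. Sexes had equal weight, and p-values were adjusted by Benjamini-Hochberg over all genes tested at 0.05. Fold changes on this scale understate the change of low genes. Alternatives were edgeR 4.0.16 and DESeq2 1.42.0 on recovered reads, pseudocounts of 0.5 and 5, a minimum mean of 50 or none, other scalings, array weights, only the groups compared, a replicate block, tissue covariates, and leaving out libraries. Limma was also run on data simulated for the HT comparison on 16606 genes. It recovered 71% of 100 changes of 0.5 log2 and 98% of 100 changes of 1 log2, and called 4 of 16406 unchanged genes (0.024%). Genes were drawn independently of each other, without the tissue differences that genes of a real library share. These rates may therefore not hold for the real libraries, and 0 calls there do not show that such changes are absent. Further tools were R 4.3.3, Python 3.11.15, numpy 2.4.6, pandas 2.3.3 and matplotlib 3.10.9.

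Named genes were protein-coding genes with the smallest p in each direction of each contrast, genes called by a count model, and up to 5 members of each list with the smallest p, plus the activity genes. Predicted genes and pseudogenes were counted and not named, and some list members are not reported here by name. The genes, lists and comparison were chosen with earlier results of these data known. The reads have no molecular identifiers, and the SD and SE cover the spread between libraries.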

Additional observations from a re-analysis of the deposited data

Results flagged for a closer look

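Of 620 values of named genes and lists by group of 5 libraries, 51 (8.23%) had 1 library whose gap to the nearest other, divided by the range on the log2 scale, was above Dixon's critical value of 0.71. Chance marks about 1 in 20 such groups. Vehicle female library 4 had 11 of them, fluoxetine female library 4 had 8, fluoxetine male library 1 had 7 and fluoxetine female library 5 had 6. Values below are normalised read counts for genes and mean log2 deviations from the HT mean for lists.

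Vehicle female library 4 was low for Ier2 (115.4), Dusp1 (347.6), Junb (529.5), Nr4a1 (1034.0), Egr2 (45.2), Sik1 (234.6), Insig1 (1455.6), Stard4 (711.5), Aplp2 (13535.5) and the immediate early list (-0.498), and high for Sgk1 (1788.1). Vehicle female library 5 was low for Atp5g3 (3258.2) and Htr1a (414.1) and high for striatal genes (1.761), and vehicle female library 2 was high for Snrpa1 (528.1). Among vehicle males, library 2 was low for Sik1 (276.4), library 1 high for the NCoR/SMRT complex (0.074) and library 4 low for deep-layer genes (-0.252). Vehicle male library 5 was high for Fbl (758.8), Calr (10902.9) and interneuron genes (0.216).

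Fluoxetine female library 4 was high for Gkn3 (50.2) and oxidative phosphorylation (0.249), stood apart for Rpl17 (4841.6), and was low for Ncor1 (4835.5), Tcf4 (8012.3), glutamate receptors (-0.176), potassium channels (-0.285) and autism risk genes (-0.275). Fluoxetine female library 5 was high for Npas4 (835.1) and interferon genes (0.428) and low for Calr (8308.1), Pdia4 (767.1), Nr4a3 (553.5) and the immediate early list (-0.253). Library 1 stood apart for Zfp13 (427.0), and library 3 for Snrpa1 (475.4) and Adm (66.0).

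Fluoxetine male library 1 was high for Fos (766.4), Egr3 (5392.4), Fosb (492.2), activity effectors (0.212) and hindbrain and thalamus genes (0.441), and stood apart for Xbp1 (2301.6) and Htr1a (497.0). Library 2 stood apart for Pou3f3 (2201.9) and leptomeningeal genes (0.75), and library 3 for interferon genes (0.623). Rom1 was apart in library 4 (57.8), and Fibin (85.0) and Mob1a (820.3) in library 5.

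DESeq2 gave a sex difference for Eif2s3y (adjusted p = 3.56e-13), Ccl21b (adjusted p = 0.00586) and the pseudogene Gm9794 (adjusted p = 0.0024), whose limma differences (male change minus female change) were 0.13, -1.08 and -2.33 with unadjusted p-values of 0.876, 0.672 and 0.317. It gave a genotype difference for the pseudogene Gm9531 (adjusted p = 0.000151; limma 1.91, unadjusted p = 0.186). All fluoxetine libraries of one sex lay on one side of their vehicle mean and all of the other sex on the other side for Hsp90ab1 (-0.23), Bst2 (0.9), Rom1 (0.99) and Aplp2 (-0.25). That ordering was not tested as such, and none of these genes passed the adjusted threshold of the sex difference in limma.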

How the results depend on the processing

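The count of genes called in HT mice (0 in limma) was 3 with array weights, 7 with the olfactory bulb covariate, 19 in DESeq2 and 1 without the 2 striatum-rich libraries, an alternative chosen after seeing the data. In females, where limma called 1 gene, it was 0 with a minimum mean of 50 (which leaves Gkn3 untested), with only the groups compared, with the striatum or leptomeningeal covariate and in edgeR, and 6 in DESeq2. In males (0) it was 1 with only the groups compared and with the olfactory bulb or leptomeningeal covariate. DESeq2 called 3 genes for the sex difference and 1 for the genotype difference, where limma called 0. Leaving out 1 library gave 0 to 2 calls in HT (2 without fluoxetine female 4 or fluoxetine male 5), 0 to 3 in females (3 without vehicle female 2), 0 to 5 in males (5 without fluoxetine male 1), and 0 in the sex and genotype differences. The cause was not tested. The share of WT genes with the same direction in HT was 85.5% to 92.8% over the other alternatives and 83% to 96.9% with 1 library left out (96.9% without WT fluoxetine male 2).

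Replicate numbers are shared by the groups, and same-numbered libraries correlated at -0.265 to 0.292 in their deviations, with the own number best in 1 of 10, so the numbers do not pair the libraries. With the replicate block, limma called 0 genes in HT, 2 in females, 0 in males and 0 in the sex and genotype differences, and the share of WT genes with the same direction was 90.6%.

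Among named genes, Egr3 turned to 0.038, Htr1a to -0.012 and Bst2 to -0.005 without the striatum-rich libraries, and Bdnf to -0.007 with array weights. With 1 library left out the log2 change ran from -0.139 to 0.033 for Egr3, -0.042 to 0.071 for Bdnf, -0.005 to 0.031 for Aplp2 and -0.108 to 0.006 for Pim1. Of the other values, 3990 kept their direction and side of the threshold and 18 passed it. Depth of 22.9 to 34.9 M reads limits genes near the minimum mean of 10.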
